A study of Homo sapiens with 12 samples.

Results

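Autophagy core machinery and cargo receptors were followed here as 37 genes, taken by name from the table of 44659 genes. The list was drawn up with earlier results of these data known, although no measured value enters the rule. They cover 7 roles, from the kinase complex that starts autophagy to the receptors that bring cargo to it. RNA-seq was performed on A375, an established human skin melanoma cell line that carries an activating BRAF mutation. In the first experiment, cells received 500 nM vemurafenib, a BRAF inhibitor, with 500 nM cobimetinib, a MEK inhibitor (together MAPKi), or DMSO, the solvent, for 24 h. In the second, cells were kept for 24 h without glutamine (Gln-depleted) or in control medium (CTRL). Medium with 2 mM glutamine was the basis of all groups but Gln-depleted, and each of the 4 groups had 3 libraries.

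Autophagy encloses parts of the cytoplasm in a membrane that closes into an autophagosome and fuses with the lysosome. The ULK1 kinase complex and a PI3-kinase complex around BECN1 start the membrane, WIPI and ATG2 proteins, ATG9A and VMP1 supply it with lipid, and ATG8 proteins (the LC3 and GABARAP families) are attached to it by ubiquitin-like conjugation enzymes after ATG4 proteases have trimmed them. Cargo receptors such as SQSTM1 (p62) bind both an ATG8 protein and the cargo, and are themselves degraded, so that a high transcript level alone does not give the rate of autophagy.

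Total counts ran from 31056296 to 40071368 per library, with a median of 35748567. No pair of replicates agreed within sampling noise. The MAPKi and DMSO libraries formed sequencing batch 2, whereas CTRL and Gln-depleted libraries formed sequencing batch 1, in which replicate 1 of each group came from experimental batch 1 and replicates 2 and 3 from experimental batch 2. The labels name no separate cultures beyond this, so p-values measure the spread between these libraries. The melanocyte-lineage gene SOX10 had 12184 or more normalized counts in every library, and the markers KRT5 (keratinocytes), PECAM1 (endothelium), ALB (liver) and EPCAM (epithelium) had 0 to 3.23. PTPRC, a marker of leukocytes, had 13.6 to 18.3 in DMSO and 2.65 to 6.68 in MAPKi, 7.88 to 16.2 in CTRL and 0 to 8.17 in Gln-depleted libraries. Other melanocyte-lineage genes moved with the treatments: MLANA had 23.7 to 35.8 in DMSO and 150 to 184 in MAPKi, 7.88 to 25.7 in CTRL and 2.04 to 6.07 in Gln-depleted libraries, and S100B 5858 to 6324 in DMSO against 1327 to 1471 in MAPKi libraries. PRAME, often high in melanoma, was near 0 in every library. DUSP6, a target of MAPK signalling, had 4333 to 4627 normalized counts in DMSO and 2.01 to 8.90 in MAPKi libraries. In the glutamine experiment DUSP6 had 4768 to 7542 in CTRL and 10066 to 16272 in Gln-depleted libraries. TRIB3, a gene of the amino acid response, had 1946 to 2613 in CTRL and 20508 to 22838 in Gln-depleted libraries. In the MAPKi experiment TRIB3 had 1308 to 1443 in DMSO and 580 to 646 in MAPKi libraries. CHAC1 and ASNS, of the same response, were also lower in MAPKi than in DMSO libraries. DDIT3, also of it, went the other way, with 492 to 625 in DMSO and 683 to 741 in MAPKi libraries. The share of RN7SK, a small nuclear RNA, was 3.95 to 4.40% of counts in MAPKi against 1.93 to 2.15% in DMSO libraries. It was 1.99, 2.46 and 3.79% in Gln-depleted against 1.55, 1.78 and 2.25% in the same-numbered CTRL libraries. The part of RN7SK, PTPRC, MLANA and S100B in the results was not tested.

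Of the 37 genes, 35 passed the filter on low counts (a mean of at least 10 normalized counts) in both experiments. ATG16L1, which places the conjugation machinery on the membrane, had 0 reads in every library, although a second row under the same symbol with a suffix held 0 to 642 reads. ULK2, the paralog of ULK1, had 0 to 5 reads. Neither gene was tested on its own row, and 0 reads in the first ATG16L1 row is not read here as absence of the transcript. The second ATG16L1 row held 6, 141 and 103 reads in DMSO and 3, 0 and 4 in MAPKi libraries, and 72, 15 and 8 in CTRL and 431, 642 and 13 in Gln-depleted libraries. With the rows added, an alternative chosen after seeing the data, ATG16L1 had a log2 fold change of -5.09 under MAPKi (adjusted p 0.00358) and 3.56 without glutamine (adjusted p 0.0831). DMSO replicate 1 lay close to the MAPKi libraries, and the other two DMSO libraries lay far above them.

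The 3 members MAP1LC3B, GABARAPL1 and WIPI1 rose in both experiments in the fits without a block, and the 150 bases before their RefSeq start sites (GRCh38.p14) are shown with each CG dinucleotide in capitals. The MAP1LC3B stretch was read from chr16:87392186-87392335 on the plus strand, the GABARAPL1 stretch from chr12:10212727-10212876 on the plus strand and the WIPI1 stretch from chr17:68457497-68457646 on the minus strand.
MAP1LC3B: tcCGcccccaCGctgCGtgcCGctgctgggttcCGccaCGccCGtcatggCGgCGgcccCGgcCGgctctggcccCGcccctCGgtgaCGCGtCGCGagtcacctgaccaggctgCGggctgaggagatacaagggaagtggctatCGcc
GABARAPL1: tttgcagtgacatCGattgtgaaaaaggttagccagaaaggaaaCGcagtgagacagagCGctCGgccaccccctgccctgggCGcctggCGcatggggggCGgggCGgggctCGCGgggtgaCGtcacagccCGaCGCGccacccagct
WIPI1: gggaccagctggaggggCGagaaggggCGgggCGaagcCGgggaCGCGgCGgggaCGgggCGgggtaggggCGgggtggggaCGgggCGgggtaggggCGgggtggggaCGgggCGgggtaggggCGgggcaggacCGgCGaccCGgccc
These stretches held 19, 14 and 19 CG dinucleotides and 74%, 66.7% and 84% G or C, respectively. The RefSeq table matched 33 of the 37 members with 40 start sites, at which the median was 68.3% G or C, against 60% over all 35116 start sites. The WIPI1 window from 250 bases before to 50 bases after the start repeated GGGCGG 10 times on either strand, MAP1LC3B held it 4 times and GABARAPL1 2 times, and 45% of all windows and those of 24 of the 33 matched members held it at least once. GGGCGG, the core of the GC box, was chosen after these stretches had been read.

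Motifs were searched on both strands of the same windows. TCACGTGA, the core of the element bound by TFEB and TFE3, stood in 0.98% of all windows and, among the members, in ATG3. CACGTG, the E-box contained in it, stood in 7.26% of all windows and in those of ATG3 and ATG14. GTAAACA, a FOXO element, stood in 3.42% of windows and in that of CALCOCO2, and TGATGNAA, bound by ATF4 with CEBP factors, in 3.62% and in no member. TGACGTCA, the cyclic AMP response element, was searched after the GABARAPL1 stretch had been read, and stood in 1.85% of windows and, among the members, in GABARAPL1. The windows around 3 of these matches are given with the motif in capitals, for ATG3 from chr3:112561940-112561969 and ATG14 from chr14:55411834-55411863 (both minus strand), and for GABARAPL1 from chr12:10212836-10212865 (plus strand).
ATG3: agagtctagtgTCACGTGAggccccggtgg
ATG14: aaaacaaaatccCACGTGactggctctcct
GABARAPL1: ggctcgcggggTGACGTCAcagcccgacgc
A match is a description of the letters. ATG3 fell and ATG14 and GABARAPL1 rose under MAPKi, as given next.

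The first comparison asked how the autophagy genes responded to MAPK pathway inhibition. Under MAPKi, 23 of the 35 tested members rose and 7 fell (edgeR quasi-likelihood test, Benjamini-Hochberg adjusted p of at most 0.05), when 38.9% of all 12592 tested genes rose and 39.2% fell. The members that rose made 65.7% of those tested and the members that fell 20%. The median log2 fold change was 0.49 over the members and 0.00 over all tested genes. All 4 ATG8 genes and all 6 genes of membrane supply rose, whereas 3 of the 6 tested conjugation enzymes fell and 1 rose. Tested against a limit of 1.5-fold, 8 members were higher (17% of all tested genes were) and 1 lower (18.6%). With DESeq2, 6 members were higher and 0 lower past that limit. Reads are shares of a library, and in bulk RNA a change in the cells' total RNA and a change in one transcript cannot be told apart.

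**Figure D1:**
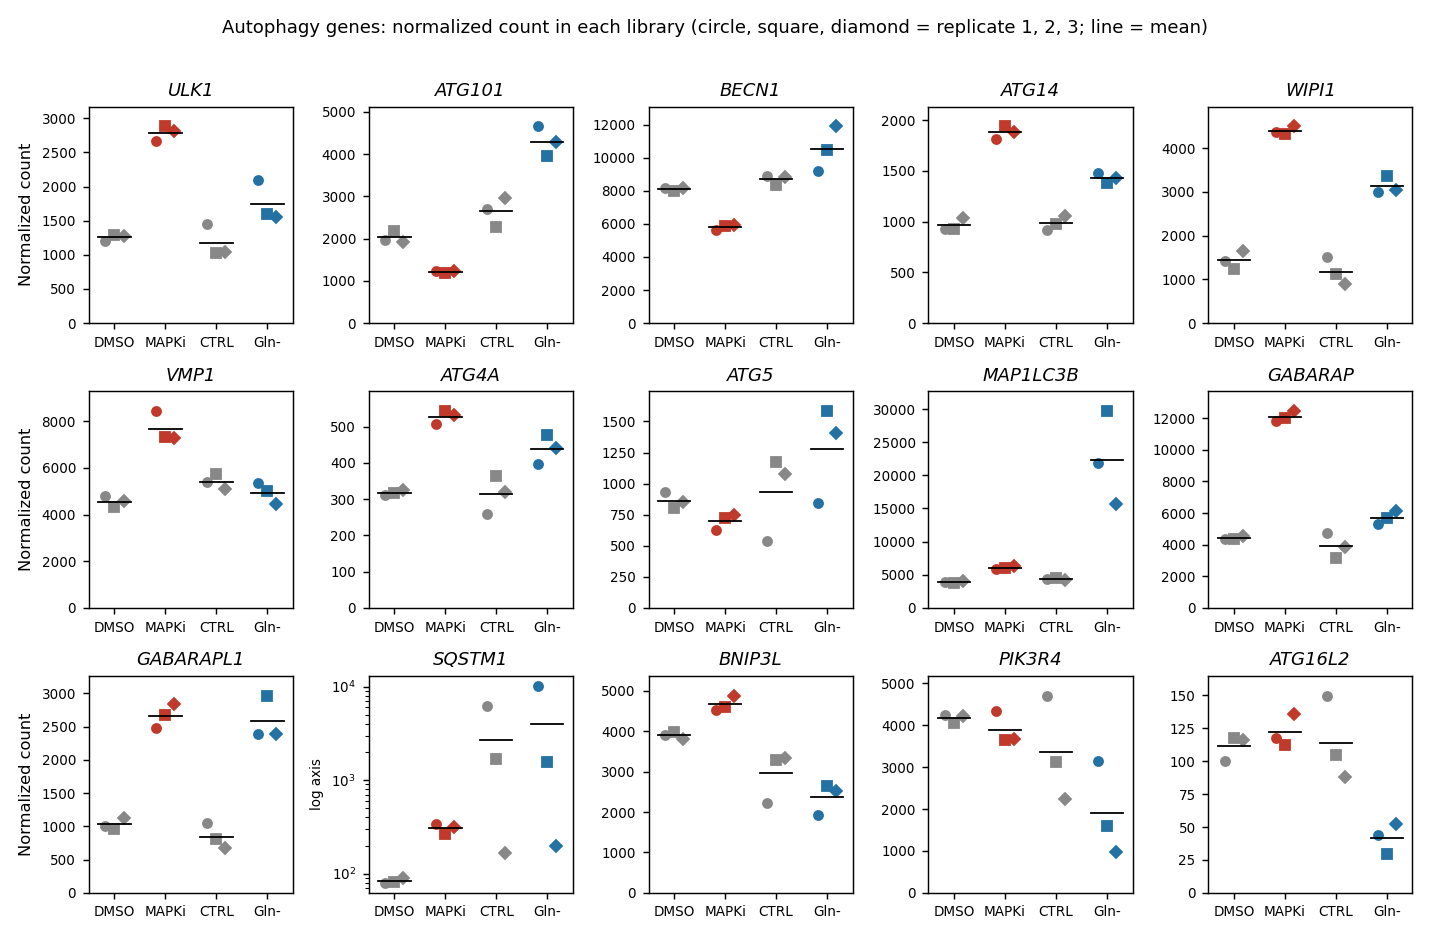
Normalized count (vertical axis, from 0 except for SQSTM1, whose axis is logarithmic) of 15 autophagy genes in each library of the DMSO, MAPKi, CTRL and Gln-depleted (Gln-) groups; circle, square and diamond are replicates 1, 2 and 3 and the line is the group mean. GABARAP lies at 11799 to 12452 in MAPKi against 4339.5 to 4552 in DMSO, MAP1LC3B at 15604 to 29693 in Gln-depleted against 4238 to 4441 in CTRL, and SQSTM1 varies 37.1-fold within CTRL.

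In the initiation kinase complex, ULK1, the kinase that receives signals from mTORC1 and AMPK, had 1201, 1288 and 1279 normalized counts in DMSO and 2669, 2884 and 2813 in MAPKi libraries. The groups did not overlap, and ULK1 rose 2.22-fold (log2 fold change 1.15 ± 0.047 SE, n = 3, adjusted p 3.52e-08). ATG101, which stabilizes ATG13 in the same complex, went the other way, with 1974, 2187 and 1929 in DMSO and 1241, 1181 and 1236 in MAPKi libraries. It fell by 0.73 on the log2 scale (SE 0.056, adjusted p 1.96e-06, lower in 3 of 3 same-numbered pairs) and was the 1 member below the fold limit (adjusted p 0.00966 against the limit). That second call was lost with DESeq2 (adjusted p 0.104) and in 1 fit of all 12 libraries (0.112), and 19.2% of the ATG101 exon bases overlap a gene on the other strand. ATG13, the adaptor of the complex, and RB1CC1 (FIP200), its scaffold, rose by 0.49 and 0.61 on the log2 scale. Thus 3 of the 4 tested members of the complex rose and 1 fell.

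The PI3-kinase complex was split. BECN1, a regulatory subunit, had 8197, 8007 and 8189 normalized counts in DMSO and 5608, 5870.2 and 5917 in MAPKi libraries. BECN1 fell by 0.49 on the log2 scale (SE 0.041, adjusted p 4.19e-06), without overlap. ATG14, which directs the complex to autophagosome formation, moved oppositely, from 925, 927 and 1036 in DMSO to 1817, 1940.0 and 1880.2 in MAPKi libraries, and rose 1.95-fold (log2 fold change 0.96 ± 0.057 SE, adjusted p 3.43e-07). Of the ATG14 exon bases, 20.8% overlap a gene on the other strand. UVRAG, which takes the place of ATG14 in the endosomal form of the complex, fell by 0.45 (adjusted p 0.0001). Thus ATG14, the subunit of the autophagic form, rose while BECN1 and the alternative subunit UVRAG fell. PIK3C3 (VPS34), the lipid kinase itself, rose by 0.15 (adjusted p 0.013) and PIK3R4, its regulatory partner, had a log2 fold change of -0.11 (adjusted p 0.176). Without MAPKi replicate 1, PIK3R4 was called lower, with a log2 fold change of -0.20 (adjusted p 0.00136).

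All genes of membrane supply rose. WIPI1, which binds the lipid made by that complex, had 1427, 1236 and 1656 normalized counts in DMSO and 4369, 4332 and 4504 in MAPKi libraries. It rose 3.06-fold (log2 fold change 1.61 ± 0.089 SE, adjusted p 2.25e-07), the largest fold change of the role. VMP1, a scramblase of the endoplasmic reticulum, had 4778, 4320 and 4582 in DMSO and 8439.6, 7327 and 7306 in MAPKi libraries, without overlap. It rose 1.69-fold (log2 fold change 0.75 ± 0.067 SE, adjusted p 5.64e-06). VMP1 was past the fold limit (adjusted p 0.0123), but not without DMSO replicate 2 (0.0505), with DESeq2 (0.0571) or in 1 fit of all 12 libraries (0.116). WIPI2, the lipid transporters ATG2A and ATG2B, and ATG9A, the scramblase of the vesicles that seed the membrane, rose by 0.38 to 0.60. Of the ATG9A exon bases, 38.8% overlap another annotated gene on the same strand, so part of its count could belong to that gene.

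Among the ATG4 proteases, which process ATG8 proteins, ATG4A rose from 310.8, 316 and 325 normalized counts in DMSO to 506.5, 543 and 534 in MAPKi libraries. The groups did not overlap, and the change was 1.66-fold (log2 fold change 0.73 ± 0.068 SE, adjusted p 7.46e-06). It was past the fold limit (adjusted p 0.0216), though not without MAPKi replicate 2 (0.0653), MAPKi replicate 3 (0.0769) or DMSO replicate 1 (0.0527), with DESeq2 (0.401) or in 1 fit of all 12 libraries (0.195). ATG4B, the most active of the family, and ATG4D rose by 0.49 and 0.52, and ATG4C fell by 0.48.

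The conjugation enzymes were the role with the fewest increases. ATG5, the target of ATG12 conjugation, had 932, 803 and 849 normalized counts in DMSO and 629, 723.5 and 751 in MAPKi libraries. The groups lay close but did not overlap, and ATG5 fell by 0.30 on the log2 scale (SE 0.082, adjusted p 0.00882), a call that was lost in 1 fit of all 12 libraries (0.362). ATG3, the E2-like enzyme for ATG8 proteins, fell by 0.51, and ATG12, the modifier joined to ATG5, by 0.22. ATG7, the E1-like enzyme that serves both conjugation systems, rose by 0.15 (adjusted p 0.0377). ATG10, the E2-like enzyme for ATG12, and ATG16L2, a homolog of ATG16L1, had log2 fold changes of 0.16 and 0.13 and did not pass (adjusted p 0.0873 and 0.398).

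The substrates of these enzymes, in contrast, rose without exception. GABARAP (chromosome 17, 7240008 to 7242449 on GRCh38, minus strand) had 4379, 4339.5 and 4552 normalized counts in DMSO and 11799, 12032 and 12452 in MAPKi libraries, a rise of 2.73-fold (log2 fold change 1.45 ± 0.044 SE, adjusted p 6.17e-09). GABARAPL1 had 1007, 958 and 1119 in DMSO and 2477, 2667 and 2836 in MAPKi libraries, a rise of 2.59-fold (log2 fold change 1.37 ± 0.070 SE, adjusted p 1.3e-07). Neither gene's groups overlapped, and both were past the fold limit. MAP1LC3B, which encodes LC3B, the usual marker protein of autophagosomes, had 3917, 3804 and 4019 in DMSO and 5799.9, 6093 and 6261 in MAPKi libraries. It rose 1.55-fold (log2 fold change 0.63 ± 0.045 SE, adjusted p 1.4e-06), as did GABARAPL2 (0.63), and neither was past the fold limit (adjusted p 0.162 and 0.175). Of the GABARAP exon bases, 48.2% overlap other annotated genes, 35.4% on the same strand, so part of its count could belong to them.

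SQSTM1, which encodes the receptor p62 for ubiquitinated cargo, had the largest fold change of the tested members under MAPKi on its own row. It had 79.6, 81.2 and 91.0 normalized counts in DMSO and 343, 265 and 313 in MAPKi libraries, which is 3.65-fold higher (log2 fold change 1.87 ± 0.13 SE, adjusted p 9.47e-07). These are low counts for the gene, and 22.4% of its exon bases overlap genes on the other strand. A second row of the symbol held 151 to 445 reads in these 6 libraries, and when both rows were added the log2 fold change was 1.19 (adjusted p 0.000177), below those of WIPI1, GABARAP and GABARAPL1. The call was also lost in 1 fit of all 12 libraries (adjusted p 0.247), which takes in the wide spread of SQSTM1 in the glutamine experiment. BNIP3L (NIX), a receptor for mitochondria, had 3904, 3981 and 3811 in DMSO and 4525, 4596 and 4873 in MAPKi libraries. It rose by 0.26 (SE 0.044, adjusted p 0.000499), though not in 1 fit of all 12 libraries (0.223). OPTN, the receptor that TBK1 phosphorylates, and CALCOCO2 (NDP52), a receptor for bacteria and mitochondria, rose by 0.55 and 0.17, and the CALCOCO2 groups overlapped (3211 in the lowest MAPKi library and 3252 in the highest DMSO library). NBR1 and TAX1BP1, which act beside SQSTM1 on ubiquitinated cargo, had log2 fold changes of 0.07 and -0.09 (adjusted p 0.261 and 0.207), and their groups overlapped. Thus 4 of the 6 receptors rose and none of the other two passed the test.

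**Figure D2:**
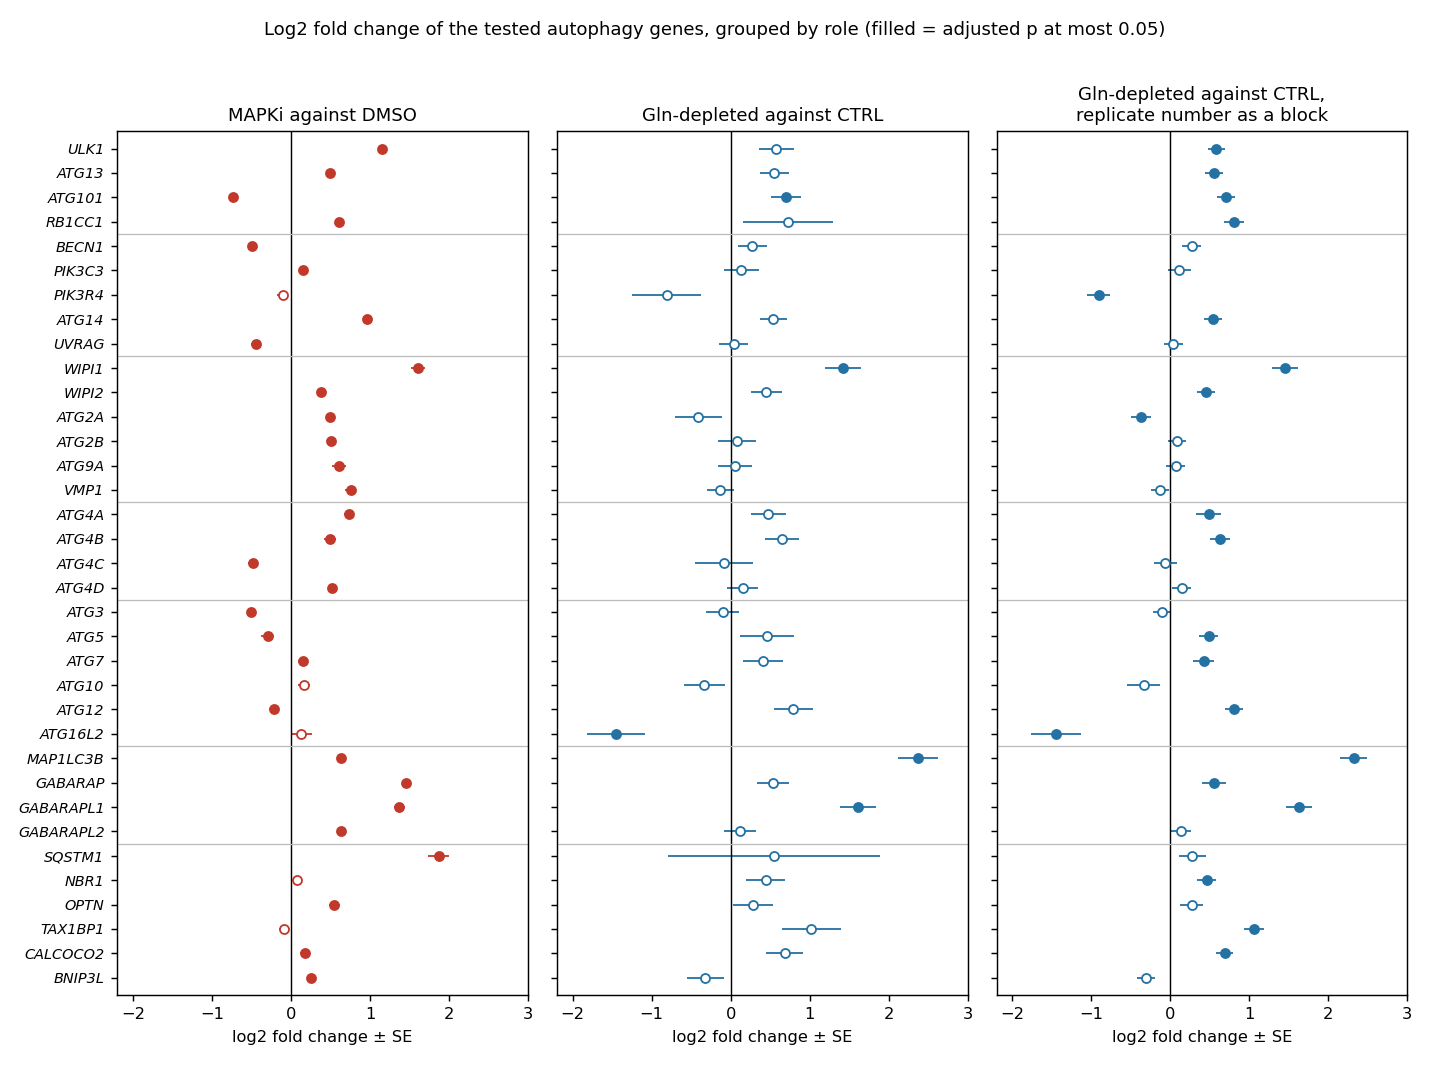
Log2 fold change ± SE (horizontal axes) of the 35 tested members in order of role, for MAPKi against DMSO, Gln-depleted against CTRL, and Gln-depleted against CTRL with the replicate number as a block; filled points have an adjusted p of at most 0.05. MAPKi gave 23 filled points to the right of 0 and 7 to the left, the glutamine experiment 4 and 1, and with the block 18 and 3.

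The second comparison asked how the same genes responded to glutamine depletion. MAP1LC3B, GABARAPL1 and WIPI1 rose past the fold limit and ATG101 rose within it, so that 4 of 35 tested members were higher and 1, ATG16L2, was lower; of all 12512 tested genes, 9.45% were higher and 8.43% lower. Past the fold limit, 3.48% of all tested genes were higher and 2.1% lower. The median log2 fold change was 0.44 over the members and 0.00 over all tested genes. Same-numbered libraries of the 2 groups deviated together (correlations of 0.584, 0.441 and 0.386), and with the replicate number as a block 18 members were higher and 3 lower, against 25.1% and 23.8% of all tested genes. With the block, 4 members were above the fold limit (8.84% of all tested genes) and 2 below it (7.84%), and the median was 0.42. The block added TAX1BP1 above the limit (adjusted p 0.00747) and PIK3R4 and ATG16L2 below it (0.0458 and 0.0418). Members whose call against no change the block altered are named with their values.

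MAP1LC3B (chromosome 16, 87383953 to 87404779 on GRCh38, plus strand) had the largest change of the members. MAP1LC3B had 4310.0, 4441 and 4238 normalized counts in CTRL and 21865, 29693 and 15604 in Gln-depleted libraries. The 3 Gln-depleted libraries differed from each other by more than the whole CTRL level, but the lowest was still far above CTRL, and the gene rose 5.17-fold (log2 fold change 2.37 ± 0.26 SE, n = 3, adjusted p 0.00158). Within experimental batch 1 the log2 ratio was 2.34, and in experimental batch 2 it averaged 2.31. MAP1LC3B2, a near-identical paralog that can share its reads, had 62 to 447 reads per library against 3642 to 30450 for MAP1LC3B.

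GABARAPL1 had 1053, 808 and 668 normalized counts in CTRL and 2386, 2961 and 2390.0 in Gln-depleted libraries, a rise of 3.06-fold (log2 fold change 1.61 ± 0.23 SE, adjusted p 0.00421). The log2 ratio was 1.18 in experimental batch 1 and averaged 1.86 in experimental batch 2. GABARAP, from 4749, 3174 and 3847 to 5284, 5659.8 and 6108 normalized counts, had a log2 fold change of 0.54 (adjusted p 0.103) and rose with the block (0.55, adjusted p 0.0184). GABARAPL2 had a log2 fold change of 0.12 (adjusted p 0.704). Hence 2 of the 4 ATG8 genes rose, and 3 with the block.

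WIPI1 was the 1 gene of membrane supply that rose, with 1504, 1112 and 900.4 normalized counts in CTRL and 3005, 3354.5 and 3050.0 in Gln-depleted libraries. The rise was 2.68-fold (log2 fold change 1.42 ± 0.23 SE, adjusted p 0.00676), with log2 ratios of 1.00 in experimental batch 1 and 1.68 on average in experimental batch 2. Of its exon bases, 28.1% overlap genes on the other strand. WIPI1 lost its place past the fold limit without CTRL replicate 2 (adjusted p 0.112), CTRL replicate 3 (0.101), Gln-depleted replicate 2 (0.108) or Gln-depleted replicate 3 (0.0799), and GABARAPL1 without CTRL replicate 2 (0.0718), CTRL replicate 3 (0.0684) or Gln-depleted replicate 2 (0.069). Both stayed higher than no change in each of these fits. VMP1, with 5408, 5726.5 and 5094 in CTRL and 5357, 5022 and 4439 in Gln-depleted libraries, had a log2 fold change of -0.13 (adjusted p 0.629). With the block, WIPI2 rose (0.45) and ATG2A fell by 0.37, and ATG2B and ATG9A were at 0.09 and 0.07 and did not pass.

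In the initiation kinase complex, ATG101 had 2704, 2274 and 2973 normalized counts in CTRL and 4662.5, 3948 and 4286 in Gln-depleted libraries. It rose 1.62-fold (log2 fold change 0.70 ± 0.19 SE, adjusted p 0.0372), without overlap. That call was lost when any 1 of the 6 libraries was left out (adjusted p 0.0578 to 0.133), although the blocked fit gave 0.00246. ULK1 had 1447, 1020.3 and 1043 in CTRL and 2089, 1591.5 and 1556.5 in Gln-depleted libraries, without overlap, at a log2 fold change of 0.58 (adjusted p 0.107) that passed with the block (0.00419). ATG13 and RB1CC1 also rose with the block, by 0.56 and 0.81. RB1CC1 stood at 1425 and 2992 normalized counts in the libraries of experimental batch 1 and at 5429 to 9969 in those of experimental batch 2. So with the block all 4 tested members of the complex rose.

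BECN1 had 8904, 8377 and 8821 normalized counts in CTRL and 9226, 10463 and 11910.0 in Gln-depleted libraries. The log2 fold change of 0.28 did not pass (adjusted p 0.304, and 0.0998 with the block), although the groups did not overlap. ATG14, with 916.5, 975 and 1056 in CTRL and 1474, 1383 and 1428 in Gln-depleted libraries, was at 0.54 (adjusted p 0.064) and rose with the block (0.00724). PIK3R4 had 4702, 3116 and 2242 in CTRL and 3157, 1587 and 983.9 in Gln-depleted libraries. It was lower in 3 of 3 same-numbered pairs, with adjusted p 0.22 without and 0.00196 with the block (log2 fold change -0.91), and the groups overlapped. PIK3C3 (0.13) and UVRAG (0.04) did not pass in either fit.

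ATG4A had 260, 365 and 319 normalized counts in CTRL and 396, 476 and 442 in Gln-depleted libraries, with adjusted p 0.169 and, with the block, 0.0333 (log2 fold change 0.48). ATG4B rose with the block too (0.63), whereas ATG4C (-0.09) and ATG4D (0.15) did not pass. Of the conjugation enzymes, ATG5 had 541.5, 1176.5 and 1078 in CTRL and 845, 1584 and 1408.5 in Gln-depleted libraries. It rose with the block (log2 fold change 0.48, adjusted p 0.0138), as did ATG7 (0.42) and ATG12 (0.80). ATG12 alone was near the limit without the block (adjusted p 0.0557), and ATG3 (-0.10) and ATG10 (-0.34) did not pass in either fit. ATG16L2, a gene of low counts, fell from 150, 105 and 87.8 in CTRL to 43.9, 29.2 and 52.2 in Gln-depleted libraries (log2 fold change -1.45 ± 0.37 SE, adjusted p 0.0318). That call held without Gln-depleted replicate 1 (0.0443) and was lost without any 1 of the other libraries, with adjusted p 0.0684, 0.0792 and 0.0578 without CTRL replicates 1, 2 and 3 and 0.115 and 0.0526 without Gln-depleted replicates 2 and 3.

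**Figure D3:**
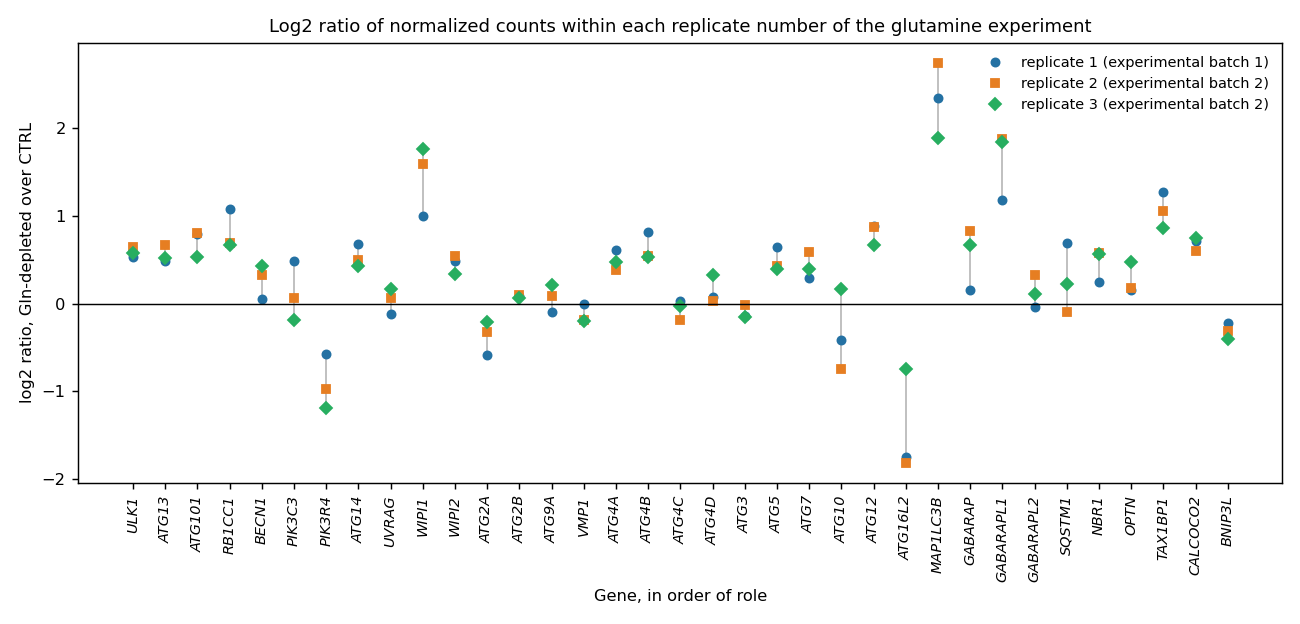
Log2 ratio of the normalized count in the Gln-depleted library over that in the CTRL library of the same replicate number (vertical axis) for the 35 tested members (horizontal axis); colours and shapes mark the 3 replicate numbers and a grey line joins them. MAP1LC3B lies at 2.34, 2.74 and 1.88, and ATG16L2 at -1.75, -1.81 and -0.74.

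None of the 6 cargo receptors passed in the fit without the block, and 3 rose with it. In that fit the adjusted p was under 0.1 for TAX1BP1 (0.0911) and CALCOCO2 (0.0747) alone. TAX1BP1 had 2865, 6815 and 6277 normalized counts in CTRL and 6913, 14080.2 and 11391 in Gln-depleted libraries. The levels of experimental batch 1 lay below those of experimental batch 2, and within each replicate number the gene was higher without glutamine (log2 ratios of 1.27, 1.05 and 0.86, adjusted p 0.000576 with the block). CALCOCO2 and NBR1 rose with the block by 0.69 and 0.46, and OPTN (0.27) did not pass. BNIP3L had 2232, 3281 and 3347 in CTRL and 1922, 2654 and 2528 in Gln-depleted libraries, a log2 fold change of -0.32 (adjusted p 0.357, and 0.0535 with the block).

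SQSTM1 varied too widely within the groups for a change to be read in the fit without the block. It had 6289, 1687 and 168 normalized counts in CTRL and 10146, 1575 and 196.5 in Gln-depleted libraries, so the highest library of a group exceeded the lowest 37.1-fold and 51.4-fold. In CTRL 27 and in Gln-depleted libraries 24 of the 12512 tested genes spread as widely, against a median of 1.46 and 1.51. The log2 fold change was 0.55 ± 1.3 SE (adjusted p 0.804), and 0.28 ± 0.17 SE with the block (adjusted p 0.202). Its log2 ratios within replicate numbers were 0.69, -0.10 and 0.22.

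The ATG8 genes were also compared with each other on a scale per length, as reads per kilobase of annotated exon (RPKM-like). Levels were scaled to the protein-coding reads of each library times its TMM factor over all 12 libraries. The summed level of the ATG8 genes was 124 to 131 in DMSO, 272 to 291 in MAPKi, 105 to 144 in CTRL and 225 to 307 in Gln-depleted libraries. The make-up of that sum differed between the treatments. GABARAP, by mean level the highest of all members in DMSO, MAPKi and CTRL libraries, held 53.3% ± 0.34 (SD, n = 3) of the ATG8 sum in DMSO and 65.0% ± 0.46 in MAPKi libraries, against 49.8% ± 3.1 in CTRL and 32.9% ± 6.6 in Gln-depleted libraries. MAP1LC3B held 18.3% ± 0.20 in DMSO and 12.6% ± 0.11 in MAPKi libraries, against 21.7% ± 3.4 in CTRL and 48.5% ± 8.1 in Gln-depleted libraries, where its mean level was the highest of all members. GABARAPL2 held 22.4% of the sum in DMSO and 15.5% in MAPKi, 23.3% in CTRL and 11.5% in Gln-depleted libraries, and GABARAPL1 lay between 4.28% and 7.60% in every library. These shares are descriptions, and they rest on exon lengths summed over all annotated transcripts of a gene.

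**Figure D4:**
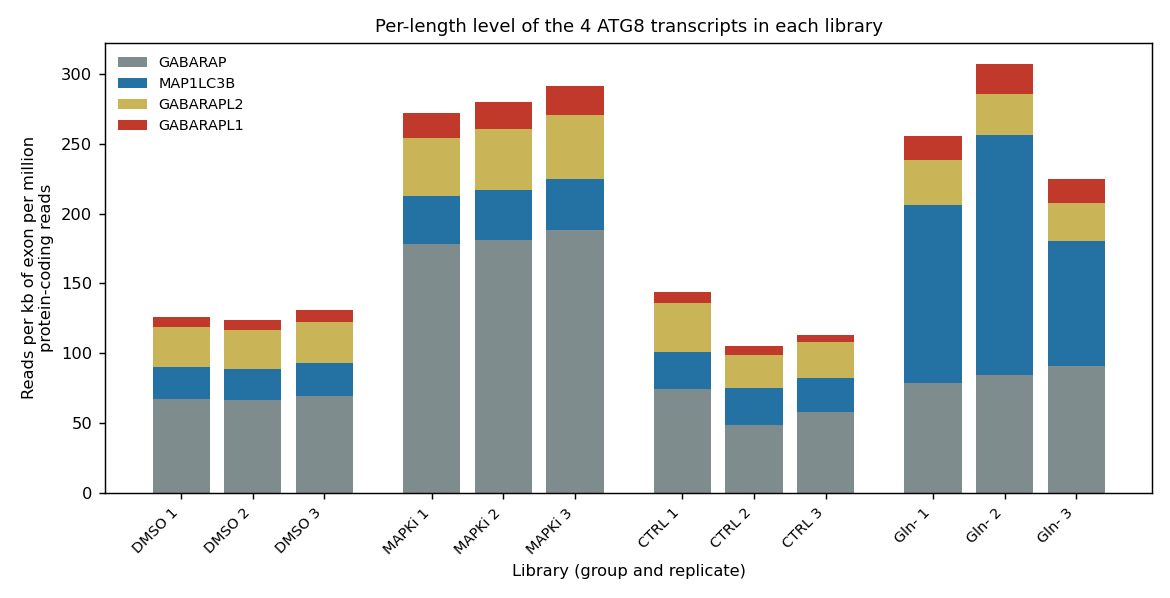
Stacked bars of the level per length of GABARAP, MAP1LC3B, GABARAPL2 and GABARAPL1 (vertical axis, RPKM-like units scaled to TMM-adjusted protein-coding reads) in each library (horizontal axis). The sums of MAPKi and Gln-depleted libraries all exceed those of DMSO and CTRL libraries, with GABARAP the largest part under MAPKi and MAP1LC3B the largest in 2 of the 3 Gln-depleted libraries.

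Across all members, 0.281 to 0.292% of protein-coding counts fell on them in DMSO and 0.372 to 0.392% in MAPKi libraries. The same share was 0.260 to 0.286% in CTRL and 0.348 to 0.397% in Gln-depleted libraries. The pairs of groups did not overlap in either experiment. Such a share weighs each gene by its reads. MAP1LC3B alone had 4378, 4662 and 4683 reads in CTRL and 21422, 30450 and 12862 in Gln-depleted libraries, and so made part of the rise there.

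Whether a gene responded differently to the treatments was tested as a contrast of the responses, each against its own control. A response is the signed log2 fold change, so the higher response can also be a smaller fall or no change beside a fall. Of the 35 tested members, 12 differed, 7 with the higher response to MAPKi and 5 with the higher response to glutamine depletion (19.3% and 21.3% of 12627 tested genes). In this fit the members thus differed in shares near or below those of all tested genes. With the block, 24 differed, 13 and 11 respectively (28.4% and 32.8%). The 12 members that differed with the block alone were ULK1, PIK3R4, ATG2B, ATG9A, ATG4D and SQSTM1 with the higher response to MAPKi, and ATG4C, ATG3, ATG5, NBR1, TAX1BP1 and CALCOCO2 with the higher response to glutamine depletion. Their adjusted p ran from 0.0528 (TAX1BP1) to 0.546 (SQSTM1) without and from 8.81e-05 (TAX1BP1) to 0.0331 (ATG4C) with the block. Of these, ATG3 and ATG4C were called lower under MAPKi and were not called without glutamine. PIK3R4 was not called under MAPKi and was called lower without glutamine with the block. The SQSTM1 difference was 1.36 ± 1.7 SE without the block. Its row held 74 to 94 reads in DMSO and 186 to 6388 in CTRL libraries. The experiments also differ in sequencing batch, but each response was taken within a batch.

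The MAP1LC3B response was lower under MAPKi by a log2 difference of -1.71 ± 0.26 SE (adjusted p 0.000301), and that of GABARAP was higher by 0.95 ± 0.20 SE (adjusted p 0.00292). GABARAPL2 had a difference of 0.54 (adjusted p 0.0488), and GABARAPL1 of -0.21 ± 0.24 SE (adjusted p 0.512), which does not show that its responses were equal. So 3 of the 4 ATG8 genes responded differently to the treatments, GABARAPL2 just within the limit without the block (0.00509 with it). Of all tested genes, 19.3% were called with a higher and 21.3% with a lower response to MAPKi in the same contrast. Over the alternative fits, the adjusted p of the GABARAPL1 difference ran from 0.0445 to 0.856. WIPI1 did not differ beyond its error (0.22 ± 0.25 SE, adjusted p 0.506).

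ATG101 fell under MAPKi and rose without glutamine, with a difference of -1.41 ± 0.17 SE (adjusted p 7.2e-05). BECN1 (-0.74), UVRAG (-0.46) and ATG12 (-0.99) also had lower responses under MAPKi. ATG14 (0.45), ATG2A (0.94), VMP1 (0.91), ATG16L2 (1.62) and BNIP3L (0.60) had higher ones. Of these, the BNIP3L call (adjusted p 0.0488) was lost in 12 alternatives, among them each fit without a MAPKi or DMSO library (0.0713 to 0.103), and the ATG14 call (0.0238) without MAPKi replicate 2 or 3 or DMSO replicate 1 or 2 (0.0584 to 0.0695). With the block, 13 members were higher in both experiments, namely ULK1, ATG13, RB1CC1, ATG14, WIPI1, WIPI2, ATG4A, ATG4B, ATG7, MAP1LC3B, GABARAP, GABARAPL1 and CALCOCO2. ATG101, ATG5 and ATG12 fell under MAPKi and rose without glutamine, and ATG2A did the opposite. Without the block, 3 members were higher in both and ATG101 was the 1 member called in opposite directions. The share of all tested genes called in both experiments was not counted, so these joint counts are not read as particular to the members. Taken singly, 38.9% of all tested genes rose under MAPKi and, with the block, 25.1% rose without glutamine.

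A further 54 autophagy genes (other ATG8 and WIPI-type genes, regulators, transcription factors, selective receptors and genes of fusion with the lysosome) were examined in the same fits. Under MAPKi, 36 of 49 tested rose (73.5%, against 38.9% of all tested genes) and 7 fell (14.3%, against 39.2%). Their median log2 fold change was 0.50, against 0.00 over all tested genes. TP53INP2, which carries ATG7 and ATG8 proteins to the early autophagosome, had 1270.1, 1132 and 1208 normalized counts in DMSO and 22838, 22163 and 22231 in MAPKi libraries, a rise of 18.6-fold (adjusted p 1.98e-10). Its relative TP53INP1 rose 10.4-fold. The receptors CALCOCO1 and RETREG1, both of the endoplasmic reticulum, rose 3.72-fold and 3.69-fold, and RUBCNL (Pacer), a BECN1-binding regulator, fell by 1.55 on the log2 scale. TFEB, a transcription factor of lysosomal and autophagy genes named here after its value was seen, rose 2.89-fold.

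Without glutamine, 5 of 48 tested further genes rose, which at 10.4% was close to the 9.45% of all tested genes, and 0 fell. With the block 22 rose (45.8%, against 25.1% of all tested genes) and 5 fell (10.4%, against 23.8%). Their median log2 fold change without the block was 0.27, against 0.00 over all tested genes. MAP1LC3B2 and TP53INP1 were past the fold limit, with log2 fold changes of 2.27 and 1.79 (adjusted p 0.00346 and 0.0113). MAP1LC3B2 can share reads with MAP1LC3B, so its rise may not be separate. CCPG1 passed the limit with the block only (log2 fold change 1.70, adjusted p 0.0017 against the limit). TP53INP2, in contrast to its rise under MAPKi, had a log2 fold change of -0.33 (adjusted p 0.243). TFEB was at -0.84 (adjusted p 0.14), lower in 3 of 3 same-numbered pairs, and fell with the block (adjusted p 0.0275). TFE3, WDR45, TFEC, MAP1LC3A and PLEKHM1 had 0 to 10 reads in every library and were not tested.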

How the data were processed

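The authors deposited 1 table of raw read counts per gene for the 12 RNA-seq libraries, made from rRNA-depleted RNA with fastp 0.20.1, HISAT2 2.2.1 on GRCh38.p13 and HTSeq 0.13.5 per the labels and the submitters' processing notes. The labels name a cytoplasmic fraction, whereas the study's methods describe total RNA, and the strand setting of the counting is not given in the sources used here. Total counts ran from 31056296 to 40071368 per library. The members and gene lists were chosen with earlier results of these data known.

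Protein-coding genes (19372 rows, from the RefSeq gene table) with a mean of at least 10 normalized counts were tested in each experiment with edgeR 4.0.16 (R 4.3.3, quasi-likelihood test, TMM scaling, glmTreat for the limit of 1.5-fold), with Benjamini-Hochberg adjustment over all tested genes at 0.05. The SE is the log2 fold change divided by the root of F. Rows with a suffixed symbol were kept apart. Normalized counts are scaled within an experiment. The difference between responses was tested as an interaction over all 12 libraries. Replicate numbers in the labels were checked for pairing: deviations of same-numbered libraries correlated at 0.584, 0.441 and 0.386 in the glutamine experiment, all above 0.1, and at 0.0687, 0.058 and 0.0564 in the MAPKi experiment. Alternatives were DESeq2 1.42.0 and its size factors, other filters, all genes of the table, 1 fit of 12 libraries, the block, the experimental batch and leaving out each library. Fits were tested on simulated data. Members past the fold limit and ULK1, BECN1, ATG5, MAP1LC3B, GABARAPL1, SQSTM1 and BNIP3L were given by library, and of the further genes at most the 5 largest changes past the limit per experiment.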

Additional observations from a re-analysis of the deposited data

How the results depend on the processing

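Depth does not limit most members, but ATG16L2 and SQSTM1 rest on low or widely spread counts, and the cause of the changes that follow was not tested. Under MAPKi, 23 members were higher in the main fit, 16 in 1 fit of 12 libraries and 20 to 22 when 1 library was left out. The fit of 12 libraries also gave 4 members lower and 5 above the fold limit. Below the fold limit there were 0 members with DESeq2, 0 in the fit of 12 libraries and 2 with further copies added, an alternative chosen after seeing the data. The median was 0.44 with copies added and 0.41 to 0.49 when 1 library was left out. Without glutamine, 10 members were higher with DESeq2, 18 with the replicate block, 14 in the fit of 12 libraries, 18 with an experimental batch term and 13 in experimental batch 2 only. The replicate block also raised the share of all tested genes called higher from 9.45% to 25.1%, and lower from 8.43% to 23.8%. Shares of all tested genes in the other alternatives are not given here. Lower were 0 at a mean count of at least 100, 3 with the replicate block, 3 with the batch term, 2 in experimental batch 2 only and 0 to 2 without 1 library. Above the fold limit were 1 to 3 without 1 library, and below it 2 with the replicate block, 1 in the fit of 12 libraries and 1 with the batch term. The median was 0.39 in the fit of 12 libraries and 0.29 to 0.44 without 1 library. Members that differed between the responses numbered 24 with the replicate block, 23 with the batch term, 21 in experimental batch 2 only and 7 to 17 without 1 library. Changes of sign were followed for 13 of the members only. Among these, the uncalled values that changed sign were the WIPI1 difference (-0.025 in experimental batch 2 only) and SQSTM1 without glutamine (-0.061 in experimental batch 2 only, and -1.613 to 2.099 without 1 library). The SQSTM1 difference ran from -0.193 to 3.551 without 1 library. In the MAPKi experiment the libraries share only a number. Each correlated best with its own number, and the replicate block changed no member's call there.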
